A study of Mus musculus with 9 samples.

Results

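Hepa1-6 cells, a mouse hepatocarcinoma line, were exposed to the material named P-Por-Os together with ultrasound, and 61 genes were listed by the study's authors as higher in these cells than in untreated controls. All 61 rows of that deposited comparison are described here, out of 217 distinct genes over the study's 3 comparisons. Every row has a log2 fold above 1 and a raw p below 0.05, so its direction was fixed by the selection and is given as a description. The table holds 0 genes that were lower, and genes outside it are not analysed here.

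P-Por-Os+US cells received P-Por-Os at 25.57 µg/mL with ultrasound (US), P-Por-Os cells received the same concentration without ultrasound, and control cells were untreated (the design text names PBS). Each group has 3 libraries, all from wild-type Hepa1-6 cells grown in serum-containing medium. No group with ultrasound alone is among the samples, so ultrasound and its combination with P-Por-Os cannot be told apart. Exposure time and ultrasound settings are not given here. Nor do the labels say that libraries come from separate cultures, so any p-value measures only the spread between these libraries, and that spread may be technical. Hepatocyte, myeloid, fibroblast, endothelial and bile duct markers could not be used to check the cells, because only selected genes have values: 0 of 8 hepatocyte and hepatoma markers and 1 of 7 myeloid markers, Cd14, were in the table.

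Values are RPKM (a read count scaled by the length of the gene and the total of the library), and levels of different genes are compared only on this per-length scale. The steps in low values placed the library totals at 34744000 to 35527000 reads for P-Por-Os+US and 35148500 to 37664000 for control. Control replicate 1 was the lowest control library for 39 of the 61 genes and control replicate 3 the highest for 41. Their median log2 deviations from the group mean were -0.20 and 0.22, against -0.04 to 0.07 for the P-Por-Os+US libraries. Among the P-Por-Os+US libraries, replicate 1 was the lowest for 25 genes and replicate 3 the highest for 34. The part of this spread in the results was not tested beyond leaving out each library.

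Metallothioneins are small cysteine-rich proteins that hold zinc and copper, and the zinc-sensing factor MTF1 is known to switch on their genes through short metal response elements. The same factor is known to act on the gene for ZnT1, which carries zinc out of the cell. In liver cells, metallothionein genes are also known to respond to oxidants, glucocorticoids and inflammatory signals.

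The promoters of the metal genes in the table are shown because their genes had 3 of the 4 highest folds among coding genes. Each window covers 250 bases before to 50 after the RefSeq start (GRCm38.p6, 5′ to 3′ on the gene's strand). Capitals mark TGCNCNC, the letters chosen here for the metal response element core, on either strand. Stricter letters may give fewer matches. The windows are chr8:94172368-94172667 (plus strand) for Mt2, chr8:94178839-94179138 (plus strand) for Mt1 and chr1:191906531-191906830 (plus strand) for Slc30a1.
Mt2 promoter: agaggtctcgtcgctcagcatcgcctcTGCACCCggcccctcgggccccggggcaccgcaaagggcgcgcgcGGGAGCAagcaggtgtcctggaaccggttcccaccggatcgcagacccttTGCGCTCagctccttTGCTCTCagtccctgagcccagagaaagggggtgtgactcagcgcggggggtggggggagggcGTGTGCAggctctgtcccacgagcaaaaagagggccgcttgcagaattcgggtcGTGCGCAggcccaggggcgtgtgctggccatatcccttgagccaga
Mt1 promoter: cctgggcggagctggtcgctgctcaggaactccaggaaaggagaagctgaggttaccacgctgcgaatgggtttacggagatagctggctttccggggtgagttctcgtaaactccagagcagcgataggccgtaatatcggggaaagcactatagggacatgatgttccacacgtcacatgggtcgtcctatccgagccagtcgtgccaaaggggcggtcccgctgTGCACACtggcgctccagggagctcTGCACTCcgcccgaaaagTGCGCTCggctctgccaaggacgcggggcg
Slc30a1 promoter: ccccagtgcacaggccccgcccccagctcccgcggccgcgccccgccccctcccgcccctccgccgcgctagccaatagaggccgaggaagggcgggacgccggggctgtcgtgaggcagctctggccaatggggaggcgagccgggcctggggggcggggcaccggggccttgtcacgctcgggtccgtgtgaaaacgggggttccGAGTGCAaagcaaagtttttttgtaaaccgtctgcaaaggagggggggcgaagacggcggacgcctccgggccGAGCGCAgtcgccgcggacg

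The Mt2 window held 6 matches to these letters, the Mt1 window 3 and the Slc30a1 window 2. Among 32851 RefSeq promoter windows of the same length, 0.225 percent held at least 6 matches, 7.10 percent at least 3, 20.2 percent at least 2 and 51.0 percent at least 1. A single match is thus common. Of the 31 listed genes with a window, 16 held at least 1 match, which is 51.6 percent, against 53.6 percent of 27025 genes with a window. A match describes letters and does not show binding.

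The combination was set against untreated cells to ask which genes were higher after P-Por-Os with ultrasound. The metallothionein Mt2 had the highest fold of the 61 genes and also the highest level. Mt1 and the zinc exporter gene Slc30a1 were higher too, as were a few genes of sterol synthesis, innate immunity, the AP-1 family, ribosome assembly and the circadian clock. Most other differences were close to the minimum for listing: the median log2 fold in the authors' deposited table was 1.16, with 49 of 61 genes under 1.5 and 4 at or above 2. The 61 genes were 0.403 percent of the 15142 genes that the authors tested. The 60 of them with an adjusted p under 0.05 in the authors' deposited table were 0.396 percent. Both shares also require a log2 fold of at least 1. Genes that passed the adjustment with a smaller fold are not listed, so the share of all tested genes that passed it is not given here and may be much larger. Every listed gene had been selected on these libraries, so nothing further is read from those shares.

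**Figure D1:**
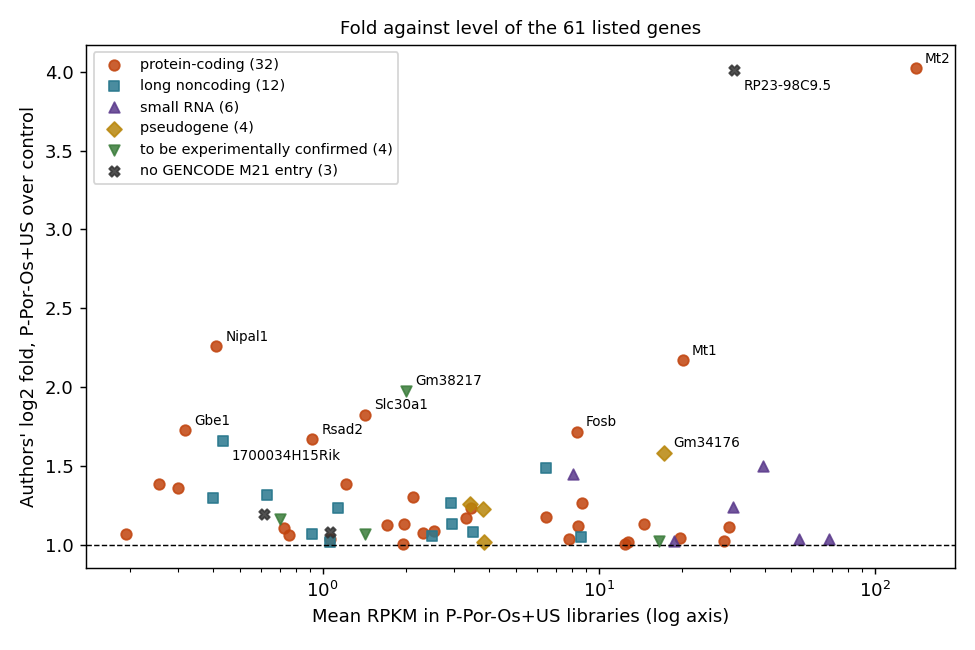
The log2 fold of P-Por-Os+US over control in the authors' deposited table (vertical axis) is plotted against mean RPKM in the 3 P-Por-Os+US libraries (horizontal log axis) for each of the 61 listed genes, with symbols for gene type and a dashed line at the listing minimum of 1. Mt2 and RP23-98C9.5 lie near 4, apart from the rest, and most genes lie between 1 and 1.5 at any level.

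Mt2, on chromosome 8 from 94172664 to 94173568 on the plus strand of GRCm38, had 141, 147 and 135 RPKM in P-Por-Os+US libraries, against 6.68, 7.80 and 10.7 RPKM in control libraries. The lowest treated library was 12.6 times the highest control library. Mt1, which begins 5513 bases past the end of Mt2 on the same strand, had 19.2, 19.2 and 22.1 RPKM in P-Por-Os+US libraries, against 3.58, 4.13 and 5.25 RPKM in control libraries. Groups did not overlap for either gene. The level of Mt1 as a ratio to Mt2 was 0.131 to 0.164 in P-Por-Os+US libraries and 0.489 to 0.536 in control libraries. The pair thus did not keep a fixed proportion, and Mt2 had the larger part after treatment. The size of the ratio depends on the annotation, which counts Mt1 over 1246 bases in 1 block and Mt2 over 588 bases in 3. In reads, control libraries had 168, 186 and 230 for Mt1 against 148, 166 and 222 for Mt2. P-Por-Os+US libraries had 836, 852 and 958 for Mt1 against 2902, 3062 and 2758 for Mt2. In the authors' deposited table the log2 fold was 4.02 for Mt2 and 2.17 for Mt1, and Mt1 had the smallest p of the 61 genes there, 9.49e-12.

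Slc30a1, on chromosome 1 from 191906767 to 191913247, encodes ZnT1 and stood at 1.5, 1.41 and 1.38 RPKM in P-Por-Os+US libraries, against 0.380, 0.422 and 0.358 RPKM in control libraries. These levels were far below those of the metallothioneins, yet the libraries within each group lay close together. The antisense model 1700034H15Rik, which overlaps Slc30a1 on the opposite strand, had 0.403, 0.434 and 0.467 RPKM in P-Por-Os+US libraries, against 0.118, 0.177 and 0.0979 RPKM in control libraries. The exons shared between both genes make up 7.67 percent of the antisense model. Of the 10 genes in the metal response list, 3 were in the table, and the other 7 (Mt3, Mt4, Slc30a2, Slc30a10, Slc39a10, Mtf1 and Hmox1) have no values here.

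RP23-98C9.5, a clone-named model with no entry in GENCODE M21, had 31.1, 32.3 and 29.8 RPKM in P-Por-Os+US libraries, against 1.47, 1.76 and 2.36 RPKM in control libraries. Its ratio to Mt2 stayed at 0.220 to 0.221 in P-Por-Os+US libraries and 0.220 to 0.226 in control libraries. No other pair of neighbouring or related listed genes held so constant a ratio: the coefficient of variation over 6 libraries was 1.06 percent here and 5.34 to 62.2 percent for the 9 other pairs examined. The authors' log2 CPM, which is not scaled by gene length, was 5.432 for RP23-98C9.5 and 5.433 for Mt2. Their log2 folds in the authors' deposited table were 4.01 and 4.02. The rows thus had nearly equal counts and may not be separate genes. Whether they count the same reads was not tested, and the model has no coordinates here. Of the exonic bases of Mt2 itself, 73.5 percent lie opposite exons of the unlisted antisense model Gm45774, which holds 57.6 percent of the 31-base words of Mt2. With the strand setting of the counting not given, reads of Mt2 and of Gm45774 cannot be told apart here.

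Fosb encodes an AP-1 subunit that cells make within minutes to hours of a stimulus. On chromosome 7 from 19302696 to 19310051, it had 7.59, 7.54 and 9.86 RPKM in P-Por-Os+US libraries, against 2.28, 2.50 and 2.48 RPKM in control libraries. All treated libraries were at least 3.02 times the highest control library. The authors' deposited table gives it a log2 fold of 1.72. It was 1 of 14 immediate early genes in the list used here, and Fos, Jun, Egr1 and the other members were not in the table.

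Sterol synthesis starts from acetyl-CoA units, and its genes are known to be switched on together by SREBP2 when membranes run low in cholesterol. Hmgcs1, which makes HMG-CoA, had 26.7, 27.2 and 31.7 RPKM in P-Por-Os+US libraries, against 12.3, 13.0 and 15.2 RPKM in control libraries. Insig1 encodes an ER protein that holds SREBP back when sterols are plentiful, and it had 1.6, 1.48 and 2.04 RPKM in P-Por-Os+US libraries, against 0.644, 0.742 and 0.865 RPKM in control libraries. Neither gene's groups overlapped, although Hmgcs1 lay near the listing minimum: its log2 fold in the authors' deposited table was 1.02, and without P-Por-Os+US replicate 3 its ratio of means was under 2. These were 2 of 30 genes in the sterol and fatty acid list. The remaining members were not in the table.

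Gm13502, a processed pseudogene on chromosome 2 from 53696121 to 53696804, had 3.55, 3.70 and 3.03 RPKM in P-Por-Os+US libraries, against 1.40, 1.62 and 1.08 RPKM in control libraries. Of its 31-base words, 100 percent occur in other genes, and all of them in Idi1, the isomerase that follows mevalonate in sterol synthesis. Reads of Gm13502 and of Idi1 may therefore be exchanged, and Idi1 itself was not in the table. The gene was noticed after its values were seen.

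The Hmgcs1 window is shown because it was the only window of the 31 with the sterol regulatory element TCACNCCAC, which 1.44 percent of 27025 genes held. It spans chr13:119690101-119690400 (plus strand, GRCm38.p6, RefSeq), and capitals mark the match.
Hmgcs1 promoter: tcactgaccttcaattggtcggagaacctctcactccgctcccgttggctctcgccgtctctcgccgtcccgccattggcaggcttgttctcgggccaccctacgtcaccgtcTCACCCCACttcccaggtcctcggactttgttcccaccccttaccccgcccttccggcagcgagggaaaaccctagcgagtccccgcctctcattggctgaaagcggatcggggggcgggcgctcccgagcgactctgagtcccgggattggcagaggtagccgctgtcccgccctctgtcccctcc

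The Insig1 window held 0 matches to these letters, which says nothing of other forms of the element.

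Innate immune genes in the table came from separate branches of the response. Rsad2 encodes viperin, an enzyme of the interferon response that makes a chain-terminating nucleotide against viruses. It had 0.971, 0.774 and 1.01 RPKM in P-Por-Os+US libraries, against 0.215, 0.243 and 0.381 RPKM in control libraries, which rest on 147, 119 and 152 reads against 35, 38 and 58. The groups did not overlap, and in the authors' deposited table the log2 fold was 1.67. Rsad2 was 1 of 15 interferon genes in the list, and Ifit1, Isg15, Irf7 and the others were not listed.

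Cxcl5, a chemokine that draws neutrophils, had 8.55, 8.75 and 7.88 RPKM in P-Por-Os+US libraries, against 3.22, 3.70 and 4.29 RPKM in control libraries. Cd14, the co-receptor that hands endotoxin to TLR4 and is also known from hepatocytes, had 3.31, 3.62 and 3.41 RPKM in P-Por-Os+US libraries, against 1.52, 1.34 and 1.34 RPKM in control libraries. Both were separated from control in every library. They made up 2 of 16 genes in the list of cytokines, chemokines and receptors, and Cd14 was the single myeloid marker listed, with the other 6 not in the table.

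The Rsad2 window is shown for its match to the interferon-stimulated response element letters GAAANNGAA, in capitals, on the reverse strand. It spans chr12:26456403-26456702 (minus strand, GRCm38.p6, RefSeq). Of the 31 listed genes with a window 5 held these letters, or 16.1 percent, against 9.76 percent of 27025 genes. Among them Nol10 held the same bases as Rsad2. The remaining motifs were searched in the same windows, on both strands. The AP-1 site TGANTCA was in 7 of the 31 listed genes, or 22.6 percent, and in 8.97 percent of all genes. The E-box CACGTG was in 5 of the 31, or 16.1 percent, and in 8.09 percent of all genes. Such shares rest on few genes, and their difference from all genes was not tested. The Fosb window held 0 matches to the AP-1 or cAMP response element letters. The antioxidant response element core TGACNNNGC was in 19.4 percent of listed genes and 14.0 percent of all genes, and the cAMP response element letters TGACGTC in 3.23 and 3.60 percent.
Rsad2 promoter: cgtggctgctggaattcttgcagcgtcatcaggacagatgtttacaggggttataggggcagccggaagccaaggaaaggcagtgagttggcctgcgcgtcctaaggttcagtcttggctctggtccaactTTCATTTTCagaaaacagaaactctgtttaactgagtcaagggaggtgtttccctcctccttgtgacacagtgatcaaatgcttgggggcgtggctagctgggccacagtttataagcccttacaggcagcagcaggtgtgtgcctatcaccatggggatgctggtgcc

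Cry1 and Txnrd3 belong to the clock and to redox control. Cry1, a repressor of the circadian clock, had 1.92, 1.6 and 2.34 RPKM in P-Por-Os+US libraries, against 0.890, 0.811 and 1.1 RPKM in control libraries. Txnrd3, a thioredoxin and glutathione reductase best known from testis, had 5.96, 6.39 and 7.06 RPKM in P-Por-Os+US libraries, against 2.31, 2.81 and 3.17 RPKM in control libraries. Neither gene's groups overlapped, but Cry1 had a ratio of means under 2 without P-Por-Os+US replicate 3 or control replicate 2. Txnrd3 was not among the 15 antioxidant genes of the list, and 0 of those 15 were in the table. The same held for 10 ferroptosis genes, 8 heat shock genes, 9 unfolded protein response genes, 10 p53 and apoptosis genes, 9 hypoxia and glycolysis genes and 70 histone symbols. Absence from a table of selected genes does not show that they did not change.

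Nipal1, which belongs to a family of magnesium transporters, had 0.345, 0.314 and 0.577 RPKM in P-Por-Os+US libraries, against 0.0604, 0.0755 and 0.110 RPKM in control libraries. Few reads lie behind these values: 53, 49 and 88 in P-Por-Os+US libraries and 10, 12 and 17 in control libraries. Its log2 fold of 2.26 in the authors' deposited table was nevertheless the third highest of the 61. Slc20a1, a sodium-dependent phosphate importer, had 1.70, 1.96 and 2.23 RPKM in P-Por-Os+US libraries, against 0.799, 0.837 and 0.933 RPKM in control libraries. Aqp9, the channel by which hepatocytes take up glycerol, was low throughout at 0.242, 0.279 and 0.243 RPKM in P-Por-Os+US libraries, against 0.0769, 0.10 and 0.103 RPKM in control libraries. None of these 3 genes overlapped between groups.

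Clca3b and Clca3a1 encode secreted or membrane-bound proteins that modulate chloride channels, and they lie 61645 bases apart on chromosome 3. Clca3b had 26.4, 28.7 and 33.6 RPKM in P-Por-Os+US libraries, against 10.7, 13.6 and 15.1 RPKM in control libraries. Clca3a1 had 2.24, 2.26 and 2.42 RPKM in P-Por-Os+US libraries, against 0.844, 1.1 and 1.23 RPKM in control libraries. The level of Clca3a1 as a ratio to Clca3b was 0.0721 to 0.0849 in P-Por-Os+US libraries and 0.0791 to 0.0816 in control libraries. Clca3a1 shares 35.0 percent of its 31-base words with the unlisted paralogue Clca3a2, so its reads may be split with that gene. Without control replicate 1 its ratio of means was under 2. The family list holds 7 genes, of which these 2 were in the table.

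Gbe1 encodes the enzyme that adds branches to glycogen and was the 1 listed gene among 8 glycogen genes. It had 0.257, 0.337 and 0.360 RPKM in P-Por-Os+US libraries, against 0.0694, 0.160 and 0.0425 RPKM in control libraries. Control replicate 2 was well above the other control libraries, with 31 reads against 14 and 8. The log2 ratio of means was 1.81, and 2.51 without that library, so the size of the difference depends on it.

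Heatr1, a subunit of the early small-subunit processome, had 7.37, 7.82 and 8.24 RPKM in P-Por-Os+US libraries, against 3.11, 3.53 and 4.37 RPKM in control libraries. Nol10, another nucleolar protein of that machinery, had 19.6, 20.2 and 19.3 RPKM in P-Por-Os+US libraries, against 8.88, 8.95 and 9.67 RPKM in control libraries. Both were separated, but Heatr1 had a ratio of means under 2 without control replicate 1. Heatr1 was 1 of 12 genes in the ribosome biogenesis list, which Nol10 is not part of.

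Hmgn2, a protein that loosens chromatin by binding nucleosomes, had 13.9, 13.5 and 16.4 RPKM in P-Por-Os+US libraries, against 5.44, 6.29 and 7.58 RPKM in control libraries. Gm10282, annotated as coding in GENCODE M21 and as a pseudogene in RefSeq, had 7.55, 8.36 and 10.2 RPKM in P-Por-Os+US libraries, against 2.54, 3.31 and 4.65 RPKM in control libraries. As 83.6 percent of the 31-base words of Gm10282 occur in Hmgn2, these rows may draw on the same reads. Bend3, a repressor found on heterochromatin, had 2.47, 2.51 and 2.59 RPKM in P-Por-Os+US libraries, against 1.13, 1.14 and 1.14 RPKM in control libraries. Its control libraries had the lowest SD of the 61 genes, and the SD was 0.0573 in P-Por-Os+US and 0.00944 in control (n = 3 each).

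The remaining coding genes with at least 1 RPKM after treatment had no common function. Emp1, a tetraspan protein of epithelial membranes, had 11.7, 12.2 and 13.4 RPKM in P-Por-Os+US libraries, against 5.78, 5.69 and 6.32 RPKM in control libraries. Gimd1, named for its GTPase domain of the IMAP family, had 12.5, 12.8 and 13.2 RPKM in P-Por-Os+US libraries, against 5.27, 5.95 and 7.07 RPKM in control libraries. Both lay at the lower edge of the table, with log2 folds of 1.00 for Emp1 and 1.02 for Gimd1 in the authors' deposited table. Cry1, also at 1.00 in the authors' deposited table, was the listed gene closest to the minimum, and genes just below it are not analysed here. Zswim7, which takes part in homologous recombination, had 3.48, 3.23 and 3.22 RPKM in P-Por-Os+US libraries, against 0.907, 1.62 and 1.75 RPKM in control libraries. Gpr137b, a lysosomal membrane protein, had 1.38, 1.11 and 1.17 RPKM in P-Por-Os+US libraries, against 0.472, 0.455 and 0.411 RPKM in control libraries. Epb41l4a, a band 4.1 family protein of the membrane skeleton, had 1.02, 1.12 and 1.04 RPKM in P-Por-Os+US libraries, against 0.427, 0.416 and 0.657 RPKM in control libraries. All 5 were separated from control, but Zswim7, Epb41l4a and Gimd1 had a ratio of means under 2 without control replicate 1.

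Agrp, which encodes a hypothalamic peptide that drives feeding, had 2.09, 2.11 and 2.16 RPKM in P-Por-Os+US libraries, against 0.603, 1.04 and 0.842 RPKM in control libraries. Its GENCODE model runs from 105566698 to 105637393 on chromosome 8 and shares 114 exonic bases with the listed noncoding model Gm5914 on the same strand. Gm5914 had 5.89, 6.73 and 6.72 RPKM in P-Por-Os+US libraries, against 2.08, 2.71 and 1.78 RPKM in control libraries. Of the exonic bases of Gm5914, 72.5 percent also lie opposite exons of Ctcf, so which transcript gave these reads cannot be told apart here.

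Coding genes below 1 RPKM after treatment numbered 8: Nipal1, Gbe1, Rsad2 and Aqp9, given above, and Jph3, Kif5a, Klhdc9 and Tmco4. Jph3 and Kif5a encode a junctional membrane protein and a kinesin, both known from neurons. Kif5a had 0.159, 0.0981 and 0.324 RPKM in P-Por-Os+US libraries, against 0.0589, 0.101 and 0.104 RPKM in control libraries. Its groups overlapped, its adjusted p in the authors' deposited table was 0.053, and without P-Por-Os+US replicate 3 its log2 ratio of means was 0.55, against 1.14 with all libraries. Jph3 had 0.340, 0.164 and 0.394 RPKM in P-Por-Os+US libraries, against 0.0655, 0.149 and 0.121 RPKM in control libraries, and P-Por-Os+US replicate 2 was 1.1 times the highest control. Klhdc9 had 0.643, 0.686 and 0.85 RPKM in P-Por-Os+US libraries, against 0.170, 0.355 and 0.456 RPKM in control libraries. Tmco4 had 0.708, 1.03 and 0.536 RPKM in P-Por-Os+US libraries, against 0.221, 0.415 and 0.427 RPKM in control libraries. Neither Klhdc9 nor Tmco4 overlapped between groups, and both had a ratio of means under 2 without control replicate 1. Without P-Por-Os+US replicate 2 the log2 ratio of means of Tmco4 was 0.81, against 1.09 with all libraries.

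**Figure D2:**
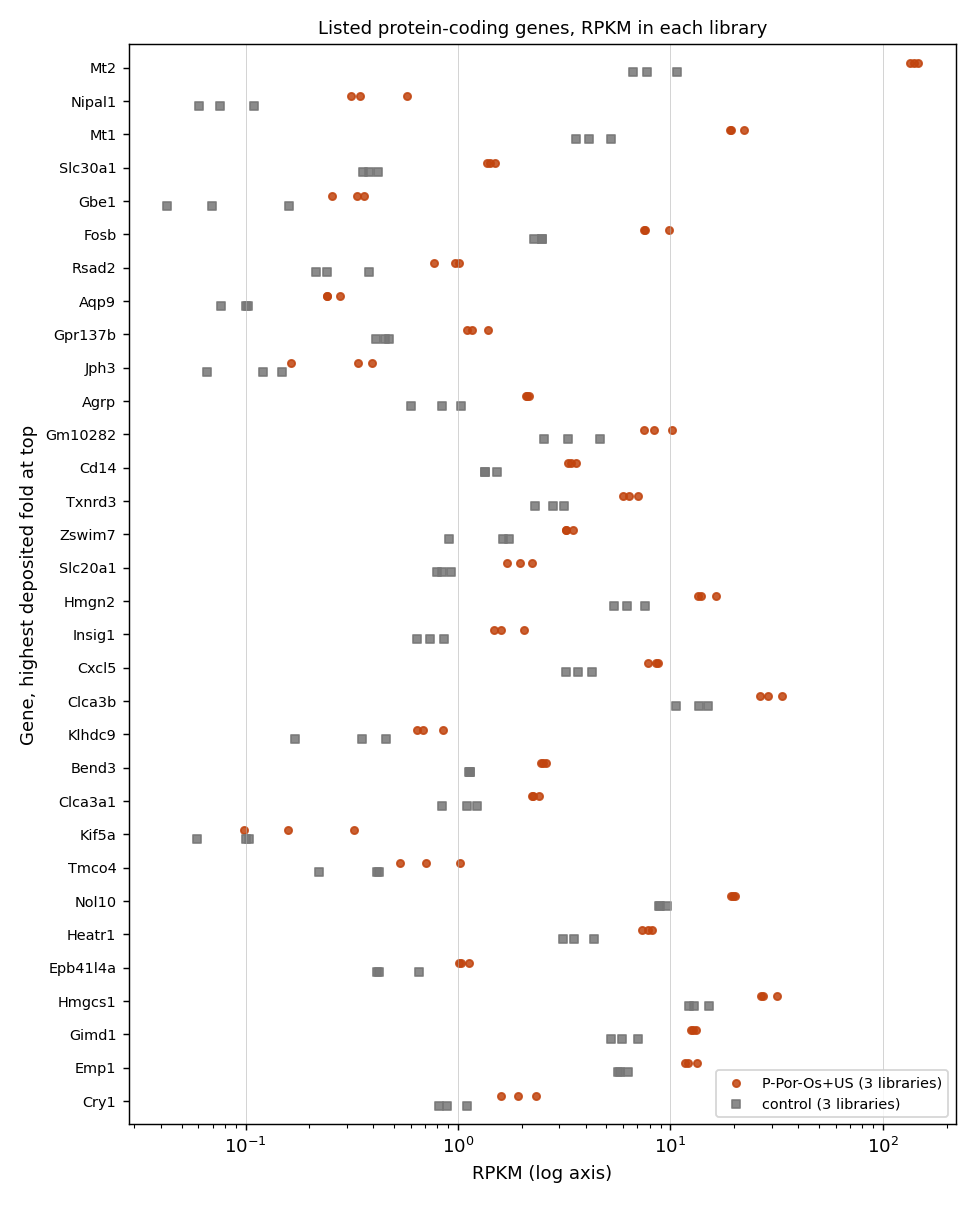
RPKM (horizontal log axis) of the 32 listed protein-coding genes in each P-Por-Os+US library (circles) and each control library (squares), ordered from the highest deposited fold at the top. Levels span from below 0.1 to above 100 RPKM, and Kif5a is the gene whose groups overlap.

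Of the 29 other models, 5 were typed as snoRNA, and each lay inside a host gene. How common this type was among all tested genes is not known here. Small nucleolar RNAs guide the chemical modification of ribosomal RNA and are mostly cut from introns of host genes. Gm23187 and Gm24451 lie 825 bases apart within Nop56, whose protein is a core part of these particles. Gm23187 had 40.9, 33.4 and 43.5 RPKM in P-Por-Os+US libraries, against 12.0, 15.1 and 12.6 RPKM in control libraries. Gm24451 had 73.3, 66.7 and 65.6 RPKM in P-Por-Os+US libraries, against 35.9, 28.5 and 31.4 RPKM in control libraries. Snora75, within the nucleolin gene Ncl, had 69.0, 46.3 and 44.2 RPKM in P-Por-Os+US libraries, against 26.3, 22.0 and 26.5 RPKM in control libraries. P-Por-Os+US replicate 1 was the high library for Snora75, and without it the log2 ratio of means was 0.86, against 1.09 with all libraries.

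Gm23202, within the ribosomal protein gene Rpl21, had 9.31, 8.95 and 6.02 RPKM in P-Por-Os+US libraries, against 2.68, 2.36 and 3.53 RPKM in control libraries. Mir5117, within the snoRNA host Gas5 and typed as a snoRNA in GENCODE M21, had 20.4, 17.4 and 18.5 RPKM in P-Por-Os+US libraries, against 11.7, 3.95 and 10.8 RPKM in control libraries. Control replicate 2 was the low library for Mir5117, and without control replicate 2 its ratio of means was under 2. Annotated exons of host transcripts cover 100 percent of Gm23187, Snora75 and Mir5117, 75.2 percent of Gm24451 and 51.9 percent of Gm23202. Library fragments of 200 to 500 bases, per the labels' protocols, are longer than these genes, which span 84 to 133 bases. The values thus describe transcripts across the loci, which may be unspliced or retained host RNA, and not the mature small RNA. Nop56, Ncl, Rpl21 and Gas5 were not in the table.

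Mir150, on chromosome 7 from 45121757 to 45121821, had 24.2, 29.0 and 39.0 RPKM in P-Por-Os+US libraries, against 8.17, 13.6 and 15.8 RPKM in control libraries. These correspond to 55, 67 and 88 reads against 20, 32 and 36. Library fragments of 200 to 500 bases, per the labels' protocols, are longer than a mature miRNA and than this 65-base gene, so the values describe transcripts across the locus and not mature miR-150. The mature 3p arm that RefSeq lists is shown to identify the gene, with its seed (bases 2 to 8) in capitals, at chr7:45121798-45121819 on the plus strand of GRCm38.p6.
mmu-miR-150-3p: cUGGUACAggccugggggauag

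The pseudogenes and the TEC models, a GENCODE class that awaits experimental evidence, were led in fold by Gm34176 and Gm38217. Gm34176, in an intron of Kif26b, had 16.5, 16.8 and 18.5 RPKM in P-Por-Os+US libraries, against 4.70, 4.84 and 7.14 RPKM in control libraries. Gm38217, inside Kirrel3, had 1.45, 2.26 and 2.31 RPKM in P-Por-Os+US libraries, against 0.321, 0.668 and 0.469 RPKM in control libraries. Neither overlapped between groups. Gm34176 shares 29.5 percent of its words with Ccdc121, Usf2-ps1 87.2 percent with Usf2, and Gm28039 50.9 percent with Zfp644. Gm42515 and Gm42514 lie 5053 bases apart on the plus strand inside Camk2d, and 9830144P21Rik overlaps Slc20a1 on the opposite strand over 9.25 percent of its exons. The ratio of 9830144P21Rik to Slc20a1 was 0.528 to 0.619 in P-Por-Os+US libraries and 0.516 to 0.574 in control libraries.

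Other noncoding models had lower folds. Gm37646, inside Naa15, had 18.8, 15.2 and 15.6 RPKM in P-Por-Os+US libraries, against 8.13, 7.47 and 7.69 RPKM in control libraries. Gm17076, a processed pseudogene inside Lrrc4c, had 4.19, 3.56 and 3.70 RPKM in P-Por-Os+US libraries, against 1.06, 1.62 and 2.07 RPKM in control libraries. Both were separated from control, although Gm37646 had a ratio of means under 2 without P-Por-Os+US replicate 1. Usf2-ps1 had 2.76, 3.89 and 4.91 RPKM in P-Por-Os+US libraries, against 1.88, 1.96 and 1.56 RPKM in control libraries, and without P-Por-Os+US replicate 3 its ratio was under 2.

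Among the antisense models, Gm44851, opposite Furin, had 2.30, 3.13 and 2.03 RPKM in P-Por-Os+US libraries, against 0.954, 1.33 and 1.18 RPKM in control libraries. Gm45231, opposite Trappc5, had 1.08, 1.06 and 0.622 RPKM in P-Por-Os+US libraries, against 0.399, 0.312 and 0.561 RPKM in control libraries. Gm16122, opposite Mad1l1, had 0.963, 0.899 and 1.32 RPKM in P-Por-Os+US libraries, against 0.504, 0.358 and 0.639 RPKM in control libraries. Groups did not overlap for these 3 models, but each had a ratio of means under 2 without at least 1 of the libraries. Of the models with no GENCODE M21 entry, RP24-174I4.2 had 0.641, 0.726 and 0.479 RPKM in P-Por-Os+US libraries, against 0.297, 0.197 and 0.280 RPKM in control libraries. BC022687 had 1.24, 0.926 and 1.04 RPKM in P-Por-Os+US libraries, against 0.277, 0.404 and 0.802 RPKM in control libraries, and control replicate 3 was its high control library. Its ratio of means was under 2 without P-Por-Os+US replicate 1, control replicate 1 or control replicate 2.

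Gm28039 had 8.78, 9.20 and 7.93 RPKM in P-Por-Os+US libraries, against 3.45, 3.70 and 4.93 RPKM in control libraries. Gm14317 had 3.11, 2.92 and 2.75 RPKM in P-Por-Os+US libraries, against 1.21, 1.04 and 1.24 RPKM in control libraries. Gm12609 had 2.86, 2.49 and 3.44 RPKM in P-Por-Os+US libraries, against 1.04, 1.5 and 1.31 RPKM in control libraries. None of these 3 models overlapped between groups.

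Gm11915, opposite Epha7, had 4.07, 3.22 and 3.22 RPKM in P-Por-Os+US libraries, against 1.41, 1.78 and 1.59 RPKM in control libraries. Gm10371, opposite Samd4, had 0.75, 0.379 and 0.755 RPKM in P-Por-Os+US libraries, against 0.188, 0.235 and 0.302 RPKM in control libraries, and P-Por-Os+US replicate 2 was its low treated library. 9830144P21Rik had 1.05, 1.04 and 1.31 RPKM in P-Por-Os+US libraries, against 0.413, 0.441 and 0.535 RPKM in control libraries. All 3 were separated from control. Of the neighbours inside Camk2d, Gm42515 had 1.33, 1.38 and 1.56 RPKM in P-Por-Os+US libraries, against 0.637, 0.540 and 0.778 RPKM in control libraries. Gm42514 had 0.703, 0.737 and 0.660 RPKM in P-Por-Os+US libraries, against 0.217, 0.302 and 0.388 RPKM in control libraries, and neither overlapped between groups.

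By annotation the 61 genes comprised 32 coding genes, 12 long noncoding genes, 6 small RNA genes, 4 pseudogenes, 4 TEC models and 3 models with no entry of that name in GENCODE M21. Median levels after treatment were 2.42 RPKM for coding genes, 1.81 RPKM for long noncoding genes and 35.0 RPKM for small RNA genes, whose short length raises the value that a read contributes. Their median log2 folds in the authors' deposited table were 1.13, 1.18 and 1.14 for coding, long noncoding and small RNA genes in that order. Of the long noncoding genes 9330151L19Rik had overlapping groups, with 0.225, 0.475 and 0.497 RPKM in P-Por-Os+US libraries, against 0.136, 0.0869 and 0.246 RPKM in control libraries.

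**Figure D3:**
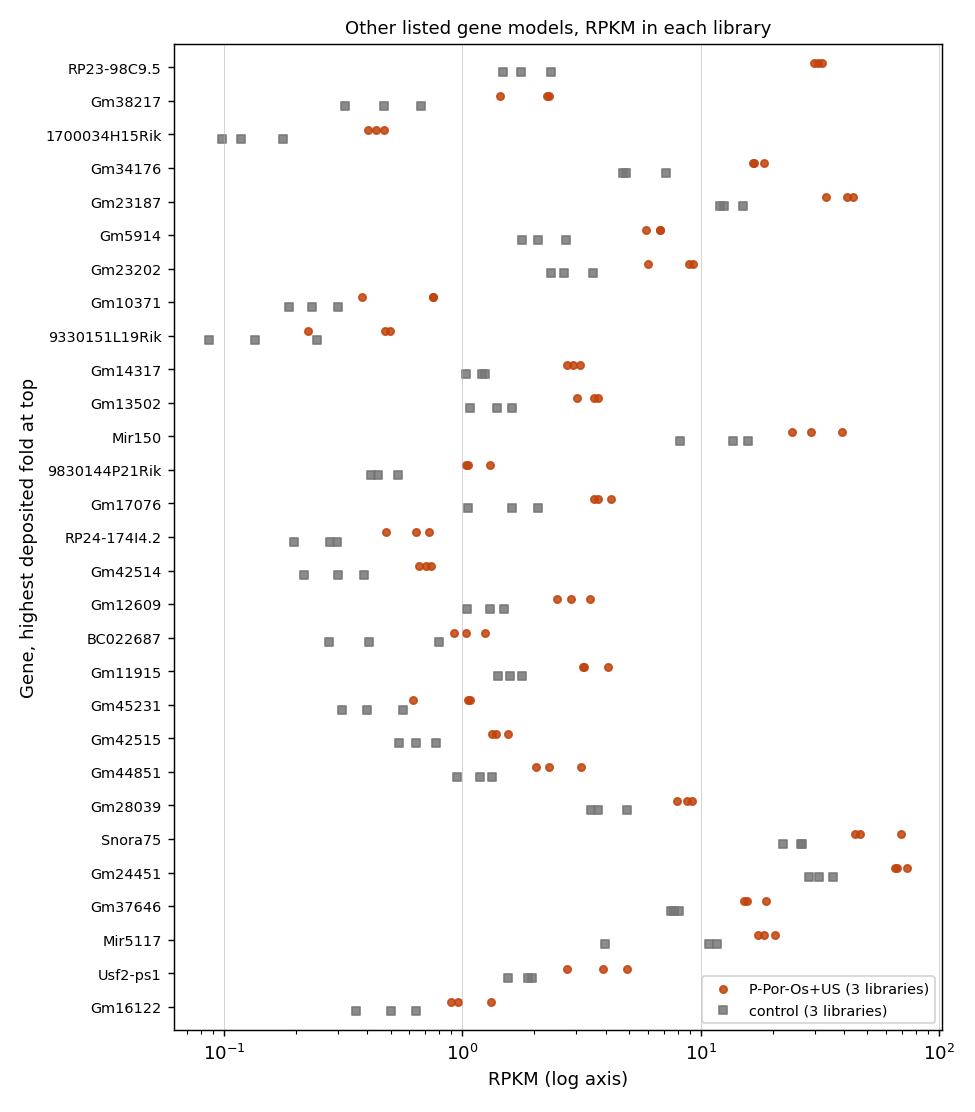
RPKM (horizontal log axis) of the 29 listed models that are not coding in GENCODE M21, in each P-Por-Os+US library (circles) and each control library (squares), ordered from the highest deposited fold at the top. The small RNA genes lie at the right, between 6.02 and 73.3 RPKM after treatment, and 9330151L19Rik is the model whose groups overlap.

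In all, all 3 P-Por-Os+US libraries exceeded all 3 control libraries for 59 genes of 61, the exceptions being Kif5a and 9330151L19Rik. A limma fit on log2(RPKM + 1) of the 41 genes averaging 1 RPKM or more gave an adjusted p under 0.05 for 41, which is 100 percent, with a highest adjusted p of 0.00897 for Mir5117. All these genes had been chosen for their difference in the same 6 libraries. Both the limma share and the separation of the groups, here and for each gene above, therefore describe the selection and support no further statement. The share of all tested genes whose groups were separated is not known, because only selected genes have values.

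Cells given P-Por-Os without ultrasound have values for 28 of the 61 genes. The control libraries are shared between both comparisons with control, so the values are set side by side with no test. Mt2 was at 141 ± 5.78 RPKM in P-Por-Os+US, 29.7 ± 2.15 RPKM in P-Por-Os and 8.41 ± 2.10 RPKM in control (SD, n = 3 each), and Mt1 at 20.2 ± 1.68, 9.69 ± 0.792 and 4.32 ± 0.852 RPKM in the same order. Every P-Por-Os library of both genes lay between the other groups. Fosb had 6.72, 4.95 and 7.05 RPKM in P-Por-Os libraries and Slc30a1 had 1.25, 1.15 and 1.1 RPKM, which were likewise above control and below P-Por-Os+US.

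Some genes stood near or below control without ultrasound. Rsad2 had 0.290, 0.283 and 0.282 RPKM in P-Por-Os libraries, within the range of the control libraries. Insig1 had 0.954, 0.738 and 0.791 RPKM in P-Por-Os libraries, and these overlapped the control libraries too. Gm34176, Gm10371, Gm11915 and Gm12609 likewise had P-Por-Os libraries that overlapped control libraries. The P-Por-Os mean was 0.649 times the control mean for Gm10371 and 0.777 times for Gm11915, against 1.18 for Gm34176 and 1.05 for Gm12609. All 6 had been chosen for a difference with against without ultrasound in another deposited comparison, so their separation from P-Por-Os is a description.

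For 5 genes the P-Por-Os+US libraries lay below every P-Por-Os library and above every control library. Clca3b had 38.3, 40.0 and 40.2 RPKM in P-Por-Os libraries, Clca3a1 had 3.44, 3.02 and 3.43 RPKM, and Cd14 had 4.07, 4.25 and 3.76 RPKM. Hmgn2 had 16.5, 17.1 and 16.7 RPKM in P-Por-Os libraries and Heatr1 had 8.81, 9.34 and 9.04 RPKM. Log2 folds over control in the authors' deposited tables were 1.11 with ultrasound and 1.47 without for Clca3b, and 1.07 and 1.52 for Clca3a1. Those of Cd14 were 1.23 and 1.39.

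For Mir150, Slc20a1, 9830144P21Rik, Gm23187, Gm14317, Gm10282, Jph3 and Kif5a the libraries with and without ultrasound overlapped. Mir150 had 26.1, 33.9 and 32.9 RPKM in P-Por-Os libraries, and Gm23187 had 43.5, 43.1 and 43.6 RPKM, so the levels with and without ultrasound differed by less than the spread of the P-Por-Os+US libraries. No values without ultrasound are used here for the other 33 genes, among them Hmgcs1, Cxcl5, Cry1, Txnrd3, Nol10, Emp1 and Gbe1.

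**Figure D4:**
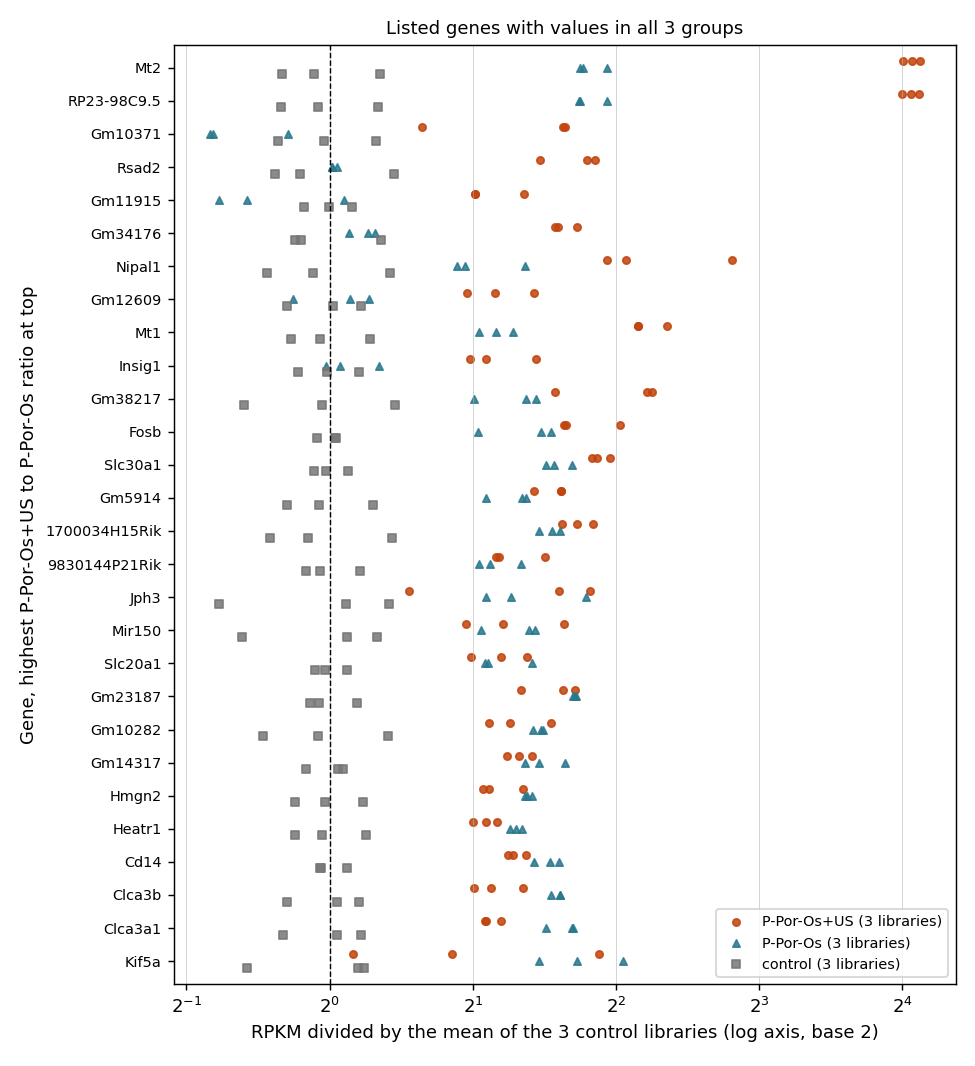
RPKM divided by the mean of the 3 control libraries (horizontal axis, log base 2) for the 28 listed genes with values in P-Por-Os+US (circles), P-Por-Os (triangles) and control (squares) libraries, ordered from the highest ratio with over without ultrasound at the top. Mt2 and RP23-98C9.5 are at the top, with P-Por-Os between the other groups, Rsad2 and Insig1 have P-Por-Os near control, and Clca3a1, Clca3b, Cd14, Heatr1 and Hmgn2 have P-Por-Os to the right of P-Por-Os+US.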

How the data were processed

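Hepa1-6 RNA libraries were stranded and sequenced as 150-base pairs, per the labels' protocols, which name an mRNA kit and a ribosomal RNA depletion kit without assigning libraries. The authors deposited a table of RPKM, with log2 folds, log2 CPM, the F score and p-values with adjusted p-values, per the file headers and the values. The submitters' processing notes name edgeR 3.12.1, fastp 0.23.4, Subread 1.5.1 with featureCounts, and the build GRCm38, while aligner, annotation and strand setting are not given here. Library totals are those at which RPKM times exonic length is whole within 0.05, for 84.7 to 90.2 percent of values under 400 reads. The number of genes tested was read from the ratio of p to adjusted p, whole for 78.7 percent of rows. GENCODE M21 held 58 of the 61 symbols. Members, lists and motifs were chosen with earlier results of these data known. List members, the 10 highest folds, the 10 highest levels and coding genes of at least 1 RPKM made up the 34 genes planned for full description. Values per library of other listed genes are given as well, outside that plan. limma 3.58.1 in R 4.3.3 used a variance trend, a pseudocount of 1 and Benjamini-Hochberg adjustment over the 41 genes averaging 1 RPKM or more, and was tested on simulated data. The smallest two-sided p of an exact permutation test is 0.1 in this design. Correlations over genes between the deviations of same-numbered libraries were 0.18, 0.014 and 0.0039. Such correlations leave out a shift shared by all genes, and replicate 1 tended to be low and replicate 3 high in both groups. Whether same-numbered libraries pair is thus not settled here.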

Additional observations from a re-analysis of the deposited data

How the results depend on the processing

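All alternatives were planned except the fold minimum of 1 combined with a pseudocount of 0.1 and no filter, which was added after the data were seen. Of 29 alternative counts, 25 were within 1.5 times the main count. All of these counts run over genes selected on the same libraries, so this closeness describes the selection and shows no stability. The 61 listed genes became 4 at a log2 fold minimum of 2 and 32 for coding genes. The 61 with a ratio of means of at least 2 became 18 by log2(RPKM + 1), and the 41 called by limma became 18 with a log2 difference of at least 1: the pseudocount lowers folds of low genes by construction. Leaving out each library gave 51 to 61 genes with a ratio of at least 2, the 51 without control replicate 1. Groups did not overlap for 59 to 60 genes. With each library left out limma called every gene tested, 40 to 42, a range set by how many averaged 1 RPKM or more. With a replicate block limma called 41 of 41, but whether the numbers pair the libraries is not settled, so the block is no check of them. Of 272 alternative values of 34 genes, 0 reversed and 5 moved by more than 1 SD, and direction was fixed by selection. Depth limits Nipal1, Gbe1 and other low genes: Gbe1 had 8 reads in one control library and Nipal1 10.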
